A study of Mus musculus with 2 samples.

Results

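Forkhead genes encode transcription factors that bind DNA through a winged-helix domain, and 10 of them were followed here: Foxc1, Foxc2, Foxo1, Foxo3, Foxo4, Foxp1, Foxp2, Foxp4, Foxn3 and Foxk1. They were chosen by gene symbol, and all 10 were found among the 24062 genes of the count tables. The samples were CD31+ KITint cells of the aorta of C57BL6 mouse embryos at embryonic day 11, called haematopoietic progenitor cells by the submitters. The Gata2Venus-negative group (CD31+G2V-KITint) and the Gata2Venus-positive group (CD31+G2V+KITint) held 1 library each, and the cells of both had been sorted on the Gata2Venus transgene, a fluorescent reporter for the blood transcription factor gene Gata2. How many embryos were pooled is not given in the sources used here. The series addresses progenitors that do not depend on Gata2.

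The winged-helix domain places a recognition helix in the major groove of DNA, and the letter in a forkhead gene's name marks its subfamily. FOXO proteins are held outside the nucleus when the kinase AKT phosphorylates them in response to growth factors, and in blood they are known for restraining the cell cycle and oxidative damage in stem cells. FOXC proteins act in mesoderm, in arterial and lymphatic vessels and in mesenchyme. FOXP proteins pair through a leucine zipper and mostly repress transcription.

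The coding sequence of the recognition helix is given for 7 of the genes. The stretches of 36 bases given here, read from the longest coding transcript of 7 of the genes (GENCODE vM21, GRCm38, the assembly of mm10), are 5′ to 3′ on the coding strand, with the codons of the central 6 residues in capitals. They are shown because the genes could be confused in read counting if these sequences were alike.
Foxc1: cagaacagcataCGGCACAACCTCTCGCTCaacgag
Foxc2: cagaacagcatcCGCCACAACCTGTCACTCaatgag
Foxo3: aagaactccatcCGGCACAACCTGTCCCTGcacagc
Foxo4: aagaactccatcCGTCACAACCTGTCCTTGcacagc
Foxp4: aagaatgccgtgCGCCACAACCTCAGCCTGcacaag
Foxn3: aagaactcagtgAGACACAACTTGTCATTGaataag
Foxk1: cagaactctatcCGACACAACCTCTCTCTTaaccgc
The capitals encode the same 6 residues in these 7 genes and are spelled in 7 different ways. Each stretch was found by searching for arginine or lysine, histidine, asparagine, leucine or isoleucine, and serine, then any residue. The likeness in residues was therefore largely set by the search. Of 36 bases, Foxo3 and Foxo4 differed at 2 and Foxc1 and Foxc2 at 5, while genes of different subfamily letters differed at 8 to 15. In Foxo3, Foxo4, Foxp4 and Foxk1 an exon junction lies inside the stretch. The other stretches lie in 1 exon each, at chr13:31807574-31807609 (plus strand) for Foxc1, chr8:121116960-121116995 (plus strand) for Foxc2 and chr12:99388394-99388429 (minus strand) for Foxn3.

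Over whole transcripts the genes were largely distinct. For Foxo3, Foxo4, Foxp2 and Foxp4, 0 of the windows of 50 bases along the longest coding transcript occurred in a transcript of another gene. Foxc1 and Foxc2 shared 4 windows with each other (0.069% and 0.149% of their windows). The shares were 6.80% for Foxo1 and 4.78% for Foxp1. In Foxo1, 674 of 8665 exonic bases overlap exons of Gm20402 on the opposite strand. In Foxp1, 435 of 13751 overlap exons of Gm20696 and Gm49348 on the same strand. The sources used here do not say whether counting used strand. If it did not, reads of Foxo1 and Gm20402 in their overlap cannot be told apart. Strand could not separate Foxp1 from Gm20696 and Gm49348 in either case.

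Counts in genes totalled 10135400 in the Gata2Venus-negative and 9715131 in the Gata2Venus-positive library. Levels are counts per 1000000 (CPM) after TMM scaling, with exact 95% Poisson intervals, and ratios are log2 of negative over positive with an exact (Clopper-Pearson) 95% interval. With 1 library per group there is no replicate check and no p-value, and the intervals cover counting error only. Reads amplified by PCR and not marked by molecular identifiers are no independent sample of molecules, which can leave the intervals too narrow. In place of a test, a rule of size was used: a gene passed with an interval wholly beyond 2-fold and a level of at least 10 CPM, from 50 or more counts, in whichever library had more of it. By this rule 30.1% of the 10381 genes that met the level filter differed, 15.2% higher and 14.9% lower in the negative library. Gata2 had 141 counts (13.5 CPM) in the negative library, against 664 (70.2 CPM) in the positive one, a log2 ratio of −2.37 (interval −2.65 to −2.11), the direction of the labels. Of the markers behind the sort and the label, Pecam1 (CD31) was at 537 CPM in the negative library, against 489 CPM in the positive one, and Kit at 199 CPM, against 60.7 CPM. Runx1, which blood cells need in order to emerge, had 21 counts in the negative library, against 303 in the positive one.

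Foxp2 was higher and Foxo1 was lower in the Gata2Venus-negative library, and the other 8 forkhead genes were not past the rule of size. Of the 10 genes, 7 met the level filter, and 2 of these 7 (28.6%) passed, against 30.1% of all genes that met it, so the share of forkhead genes that differed was near the background. With an interval required beyond 4-fold, or with a coefficient of variation of 0.4 between libraries assumed on top of counting error, 0 of the 10 passed, against 14.4% and 12.8% of all genes. Foxc1, Foxo3 and Foxo4 were below the filter in both libraries. The interval lay below equal expression for 5 of the 10 genes and above it for 3, and for 2 it included equality. Over all 12544 genes with at least 20 counts over both libraries, it lay below for 43%, above for 42.3% and on either side for 85.3%, so at this depth most genes differ by more than counting error. The 10 log2 ratios lay between −1.93 (Foxc1) and 1.39 (Foxp2), with a median of −0.39, while the median over those 12544 genes was −0.01. Summed over the 10 genes, 3174 counts (305 CPM) were found in the negative library, against 3237 (342 CPM) in the positive one, a log2 ratio of −0.17 (interval −0.24 to −0.10). Members with ratios on both sides of equal expression entered this sum. In these bulk libraries, fewer cells of a type and less RNA per cell cannot be told apart.

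**Figure D1:**
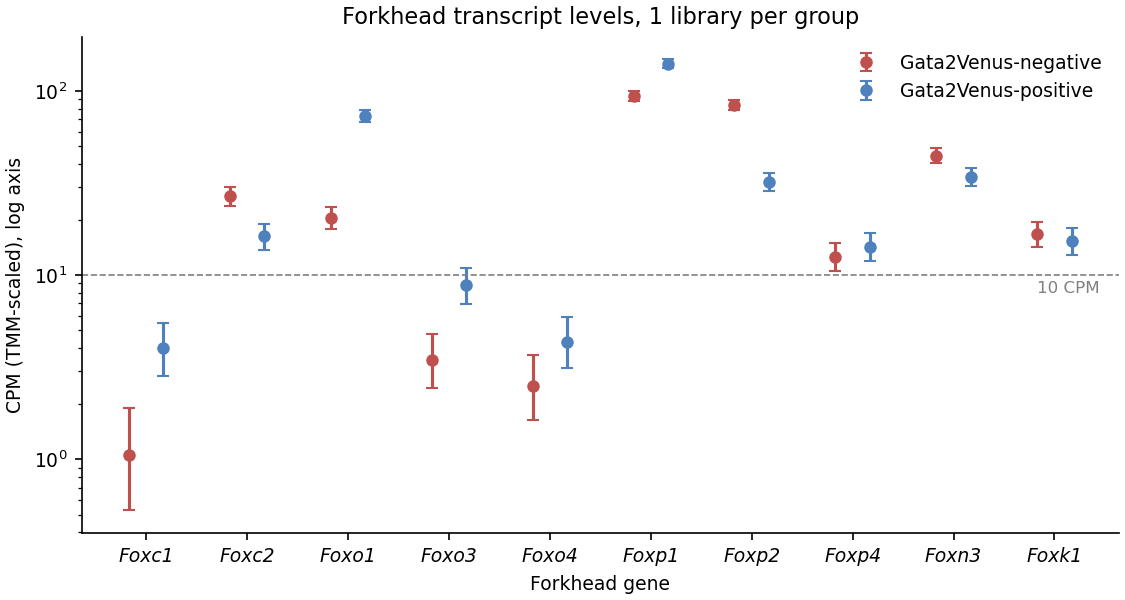
Levels of the 10 forkhead genes in CPM (log axis) in the Gata2Venus-negative library (red, left of each pair) and the Gata2Venus-positive library (blue), 1 library each; bars are exact 95% Poisson intervals and the dashed line is 10 CPM. Foxo1 stands at 20.4 CPM in the negative library, against 73.0 CPM in the positive one, Foxp2 at 83.8 CPM in the negative library, against 31.9 CPM in the positive one, and Foxc1, Foxo3 and Foxo4 lie under the line in both.

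Foxo1 was 3.58-fold lower in the negative library. Foxo1 (chromosome 3, 52268336 to 52353221) encodes an insulin- and AKT-controlled factor that the embryo needs to form its vessels. It had 212 counts in the negative library, 20.4 CPM (interval 17.7 to 23.3), and 690 counts in the positive library, 73.0 CPM (interval 67.6 to 78.6). The log2 ratio was −1.84 (interval −2.07 to −1.62). Among all genes that met the level filter, 9.43% were at least as far in the same direction, so a difference of this size was common between these libraries.

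The other FOXO genes had values on the same side, at lower levels. Foxo3 (chromosome 10, 42181841 to 42276755), known for keeping adult blood stem cells quiescent, had 36 counts (3.46 CPM, interval 2.42 to 4.79) in the negative library, against 83 counts (8.78 CPM, interval 6.99 to 10.9) in the positive one. Its log2 ratio was −1.34 (interval −1.95 to −0.76). Foxo4 (chromosome X, 101254528 to 101260873) had 26 counts (2.50 CPM, interval 1.63 to 3.66) in the negative library, against 41 counts (4.34 CPM, interval 3.11 to 5.88) in the positive one, a log2 ratio of −0.80 (interval −1.56 to −0.05). Neither could pass the rule, since both were under 10 CPM in each library. The interval of each of the 3 FOXO ratios lay below equal expression, as did those of 43% of the genes with at least 20 counts over both libraries, but that of Foxo4 was −1.49 to 0.03 when libraries were scaled by total counts.

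Summed over Foxo1, Foxo3 and Foxo4, the FOXO level was 26.3 CPM (interval 23.3 to 29.6) in the negative library, against 86.1 CPM (interval 80.3 to 92.2) in the positive one, 3.27-fold lower in the negative (log2 ratio −1.71, interval −1.91 to −1.51). Foxo1 gave most of this sum, 77.4% of FOXO counts (interval 72.0 to 82.2) in the negative library, against 84.8% (interval 82.1 to 87.2) in the positive one. Without Foxo1, the summed log2 ratio was −1.14 (interval −1.60 to −0.69). Per kilobase of exon, Foxo1 made up 66.7% of FOXO transcripts in the negative library, against 77.8% in the positive one.

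Foxp2 was 2.62-fold higher in the negative library. Foxp2 (chromosome 6, 14901349 to 15441977), a repressor with known roles in the developing lung and brain, had 872 counts in the negative library, 83.8 CPM (interval 78.3 to 89.5). In the positive library it had 302 counts, 31.9 CPM (interval 28.4 to 35.7). The log2 ratio was 1.39 (interval 1.20 to 1.58), and 13.5% of the genes that met the level filter were at least as far in the same direction.

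Its paralogs were not past the rule. Foxp1 (chromosome 6, 98925338 to 99522721), a repressor needed in B cell and heart development, had 972 counts (93.4 CPM, interval 87.6 to 99.4) in the negative library, against 1329 counts (141 CPM, interval 133 to 148) in the positive one. Its log2 ratio of −0.59 (interval −0.71 to −0.47) was on the other side of equal expression from that of Foxp2 and not past the rule. Foxp4 (chromosome 17, 47867133 to 47924645), which acts beside both in the developing lung, had 131 counts (12.6 CPM, interval 10.5 to 14.9) in the negative library, against 135 counts (14.3 CPM, interval 11.97 to 16.9) in the positive one. The interval of its log2 ratio, −0.18 (−0.54 to 0.18), included equal expression, so a difference was not detectable at this depth.

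The FOXP sum was thus close between the libraries while its make-up was not. Foxp1, Foxp2 and Foxp4 together stood at 190 CPM (interval 181 to 198) in the negative library, against 187 CPM (interval 178 to 196) in the positive one, a log2 ratio of 0.02 (interval −0.07 to 0.12). Foxp2 held 44.2% of these counts (interval 41.9 to 46.4) in the negative library, against 17.1% (interval 15.4 to 18.9) in the positive one. Foxp1 held 49.2% (interval 47.0 to 51.4) in the negative library, against 75.3% (interval 73.2 to 77.3) in the positive one.

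The ratio between paralogs within a library does not depend on how the libraries are scaled. There were 0.897 Foxp2 counts per Foxp1 count in the negative library, against 0.227 in the positive one, a 3.95-fold difference (exact conditional interval 3.37 to 4.63). This was 1 of 9 such ratios between forkhead genes computed here. The share over other gene pairs was not computed. For single genes with at least 20 counts over both libraries, the interval left out equality in 85.3%. Of the 9 ratios between forkhead genes, the interval left out equality in 7. For Foxo1 over Foxo3 it did not: 5.89 Foxo1 counts per Foxo3 count in the negative library, against 8.31 in the positive one (ratio of the 2 values 0.708, interval 0.458 to 1.11). Foxo3 over Foxo4, at 1.38 in the negative library, against 2.02 in the positive one, was the other (ratio 0.684, interval 0.349 to 1.35).

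**Figure D2:**
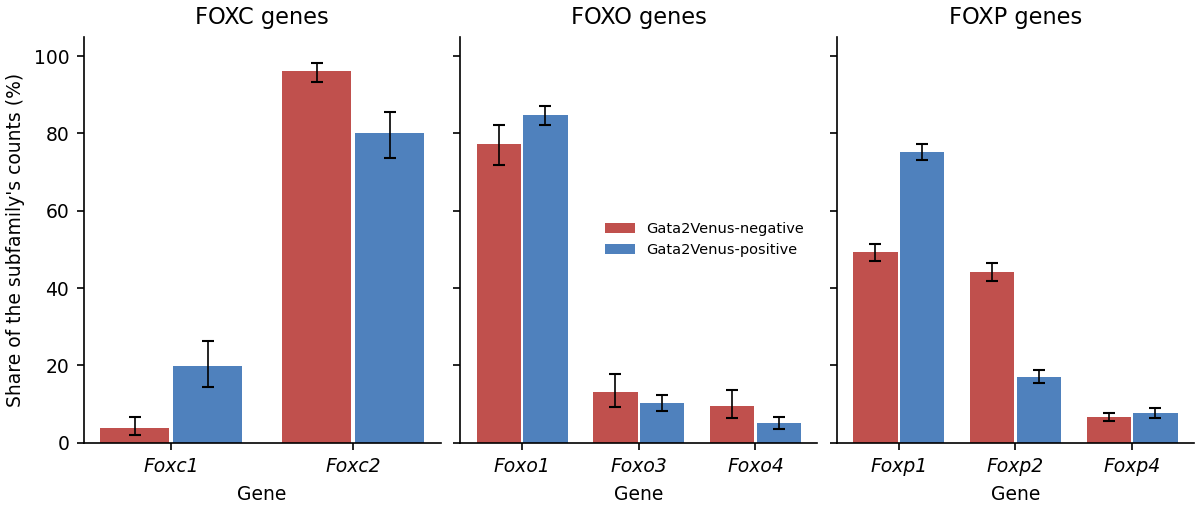
Share of each subfamily's counts held by each gene, in percent, in the Gata2Venus-negative (red) and Gata2Venus-positive (blue) library; bars start at 0 and error bars are exact 95% binomial intervals for counting error. Foxp2 holds 44.2% of FOXP counts in the negative library, against 17.1% in the positive one, and Foxc1 holds 3.79% of FOXC counts in the negative library, against 19.9% in the positive one.

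The FOXC genes had ratios on opposite sides of equal expression and neither was past the rule. Foxc2 (chromosome 8, 121116171 to 121118895), a regulator of lymphatic and arterial vessels and of mesenchyme, had 279 counts (26.8 CPM, interval 23.7 to 30.1) in the negative library, against 153 counts (16.2 CPM, interval 13.7 to 19.0) in the positive one. Its log2 ratio was 0.73 (interval 0.44 to 1.02). Foxc1 (chromosome 13, 31806633 to 31812476), its close relative, which also acts in the stromal niche of adult blood stem cells, had 11 counts (1.06 CPM, interval 0.527 to 1.89) in the negative library, against 38 counts (4.02 CPM, interval 2.84 to 5.51) in the positive one. Its log2 ratio was −1.93 (interval −3.04 to −0.93), from few counts.

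Within the FOXC pair, Foxc1 held 3.79% of counts (interval 1.91 to 6.69) in the negative library, against 19.9% (interval 14.5 to 26.3) in the positive one. There were 0.0394 Foxc1 counts per Foxc2 count in the negative library, against 0.248 in the positive one, a 6.30-fold difference. The ratio of the 2 values was 0.159 (interval 0.071 to 0.329). Foxc2 thus held most FOXC counts in both libraries.

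Foxn3 and Foxk1 had small ratios and were not past the rule. Foxn3 (chromosome 12, 99190078 to 99563582), a repressor linked to cell cycle checkpoints, had 462 counts (44.4 CPM, interval 40.4 to 48.6) in the negative library, against 322 counts (34.0 CPM, interval 30.4 to 37.98) in the positive one, a log2 ratio of 0.38 (interval 0.17 to 0.59). Foxk1 (chromosome 5, 142401497 to 142462011), which recruits the SIN3 corepressor, had 173 counts (16.6 CPM, interval 14.2 to 19.3) in the negative library, against 144 counts (15.2 CPM, interval 12.8 to 17.9) in the positive one. Its log2 ratio of 0.13 had an interval of −0.20 to 0.46, and no difference was detectable at this depth.

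**Figure D3:**
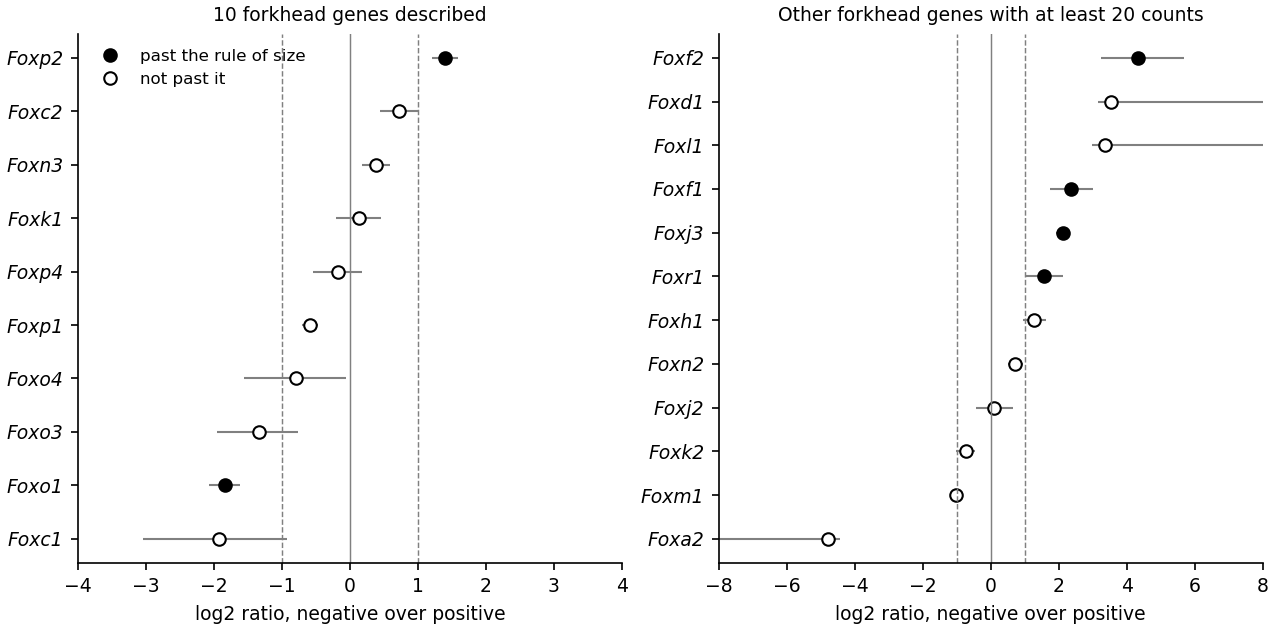
Log2 ratio of Gata2Venus-negative over Gata2Venus-positive for the 10 genes (left panel, axis from −4 to 4) and for the other forkhead genes with at least 20 counts over both libraries (right panel, axis from −8 to 8), with exact 95% intervals; dashed lines mark 2-fold and filled points are past the rule of size. A point whose interval runs to the edge of the panel has 0 counts in 1 library, which was set to 3 counts for the point. Foxo1 and Foxp2 are the filled points on the left, and Foxf2, Foxf1, Foxj3 and Foxr1 on the right.

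Levels can be compared between genes only per length, and the order then depended on the length used. Per kilobase of all annotated exons, Foxc2 led in the negative library at 9.83 CPM per kb (interval 8.71 to 11.1), above Foxp1 at 6.79 and Foxp2 at 5.12. In the positive library Foxp1 led at 10.2 CPM per kb (interval 9.68 to 10.8), above Foxo1 at 8.42 and Foxc2 at 5.94, while Foxp2 stood at 1.95. The lowest were Foxo4, Foxo3 and Foxc1, at 0.717, 0.457 and 0.181 CPM per kb in the negative library, against 1.24, 1.16 and 0.688 in the positive one. In the negative library the neighbours in this order whose intervals overlapped were Foxp4, Foxo1 and Foxk1, and Foxo4, Foxo3 and Foxc1. In the positive library they were Foxn3 and Foxp4, Foxk1 and Foxp2, and Foxo4, Foxo3 and Foxc1. By the longest transcript, Foxp1 (13.0 CPM per kb) and Foxp2 (12.4) lay above Foxc2 in the negative library, where the total of all exons covers 31 annotated transcripts of Foxp1 and 20 of Foxp2.

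Among the other forkhead genes, those past the rule of size were all higher in the negative library. Of 34 further forkhead genes in the tables, 19 had 0 counts in both libraries, 8 met the level filter, 4 were higher, 0 were lower and 4 were not past the rule, beside a background of 15.2% higher and 14.9% lower. Foxf2, a gene of mesenchyme and pericytes, had 155 counts in the negative library, against 7 in the positive one (log2 ratio 4.33, interval 3.25 to 5.67). Foxf1, which patterns the mesenchyme around the gut and lung, had 151 counts in the negative library, against 27 in the positive one (log2 ratio 2.34, interval 1.75 to 2.99). Foxj3 was at 122 CPM in the negative library, against 28.3 CPM in the positive one (log2 ratio 2.11, interval 1.92 to 2.31). Foxr1 had 128 counts in the negative library, against 39 in the positive one (log2 ratio 1.58, interval 1.05 to 2.13), and was not past the rule once the deeper library was thinned to the depth of the other.

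The further forkhead genes with the most counts were Foxj3, Foxm1 and Foxn2. Foxm1, which drives genes of mitosis, was at 51.2 CPM in the negative library, against 103 CPM in the positive one, with a log2 ratio of −1.01 (interval −1.16 to −0.86) that was not past the rule. Foxn2 was at 47.5 CPM in the negative library, against 28.9 CPM in the positive one (log2 ratio 0.72, interval 0.50 to 0.94). Foxa2 and Foxd1 were named after their values were seen. Foxa2 had 0 counts in the negative library, against 75 in the positive one. It was at least 21.8-fold lower by the exact 95% bound (27.5-fold with 0 set to 3 counts). Foxd1 had 38 counts in the negative library, against 0 in the positive one. It was at least 8.91-fold higher by the exact bound (11.5-fold with 0 set to 3 counts). Neither reached 10 CPM.

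Several chromosomal neighbours of the FOXC genes were past the rule of size. Foxc2 met the level filter and was not past it, while Foxc1, below the filter, could not pass. On chromosome 8, Foxf1 starts 31.8 kb from the Foxc2 start and Foxl1 starts 11.8 kb from it, on its other side. Foxl1, under the level filter, had 34 counts in the negative library, against 0 in the positive one. It was at least 7.93-fold higher in the negative library by the exact bound (10.3-fold with 0 set to 3 counts). Fendrr, a long non-coding RNA gene beside Foxf1, had 113 counts in the negative library, against 0 in the positive one. It was at least 27.4-fold higher by the exact bound (34.2-fold with 0 set to 3 counts). Mthfsd, which lies between Foxf1 and Foxc2, had 455 counts in the negative library, against 393 in the positive one (log2 ratio 0.07).

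On chromosome 13, Foxf2 and Foxc1, whose starts are 181 kb apart, had ratios on opposite sides of equal expression. Foxq1 had 0 counts in both libraries. Gmds, an enzyme of fucose metabolism on the other side of Foxc1, had 238 counts in the negative library, against 645 in the positive one (log2 ratio −1.58, interval −1.80 to −1.36). Of the 7 neighbours with a row, 5 met the level filter, and of these 3 were higher, 1 was lower and 1 was not past the rule in the negative library, beside 30.1% of all genes past it. Foxl1 and Foxq1 were below the filter. This list shares Foxf1, Foxf2, Foxl1 and Foxq1 with the other forkhead genes, so Foxf1 and Foxf2 count as higher in both.

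**Figure D4:**
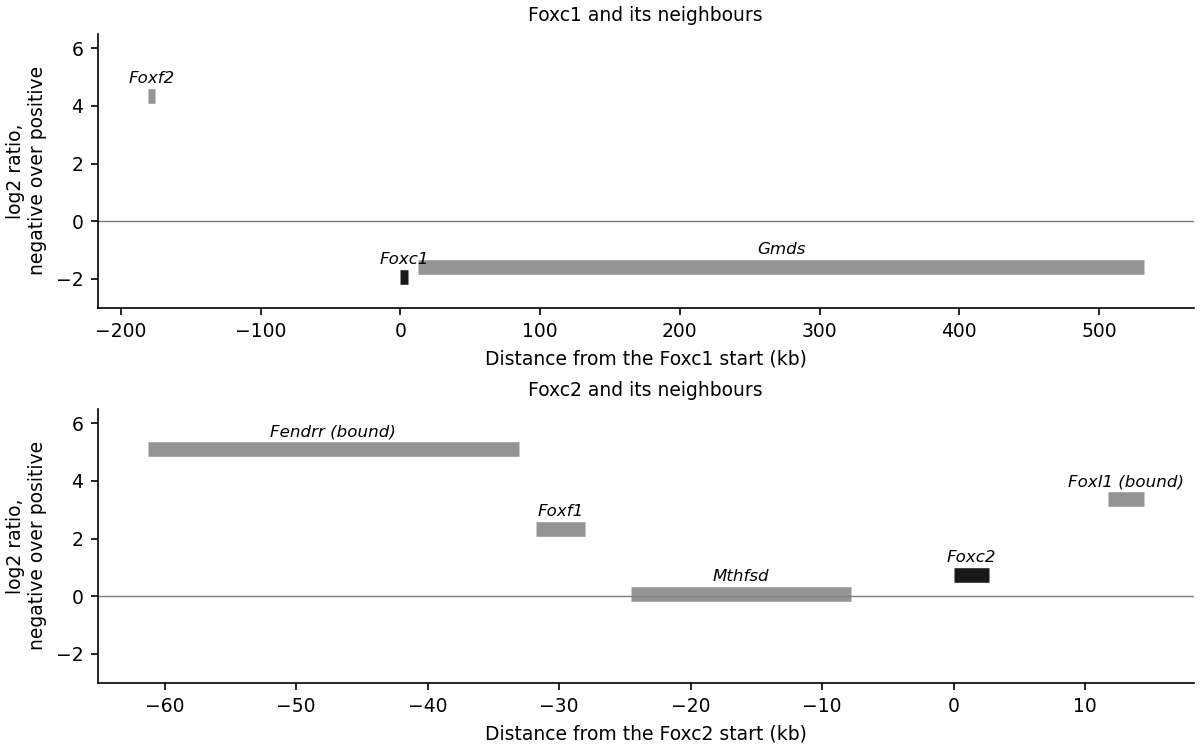
Log2 ratio of Gata2Venus-negative over Gata2Venus-positive for Foxc1, Foxc2 (black) and their neighbours (grey), each drawn over its span as distance in kb from the Foxc1 or Foxc2 start; "bound" marks a gene with 0 counts in the positive library, set to 3 counts, and Foxq1, at 0 in both, is not drawn. Foxf1, Fendrr and Foxl1 lie above Foxc2 (0.73), and Foxf2 (4.33) lies above Foxc1 (−1.93).

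Few genes of the pathway that controls FOXO proteins were past the rule of size. Of 35 FOXO regulators (PI3K and AKT kinases, phosphatases, 14-3-3 proteins, acetylases and others), 33 met the level filter, 1 was higher, 3 were lower and 29 were not past the rule in the negative library, beside 15.2% higher and 14.9% lower over all genes. The median log2 ratio was 0.22, against −0.01 over all genes. Inpp5d, the SHIP1 phosphatase of blood cells that opposes PI3K signals, had 13 counts in the negative library, against 574 in the positive one (log2 ratio −5.60, interval −6.52 to −4.82). Pik3cb, a PI3K catalytic subunit, had 3 counts in the negative library, against 175 in the positive one (log2 ratio −6.00, interval −8.30 to −4.43). Prkaa1, a catalytic subunit of AMPK, was 4.39-fold lower and Pik3r1, the p85α regulatory subunit of PI3K, was 2.61-fold higher in the negative library.

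FOXO target genes past the rule lay in both directions, as did all genes. Of 37 targets, 24 met the level filter, 5 were higher, 5 were lower and 14 were not past the rule in the negative library, beside 15.2% higher and 14.9% lower over all genes, and the median log2 ratio was −0.14 over the 32 with at least 20 counts. Insr, the insulin receptor gene, had 0 counts in the negative library, against 270 in the positive one. It was at least 80.0-fold lower by the exact bound (99.1-fold with 0 set to 3 counts). Cdkn1a, the p21 cell cycle inhibitor gene, was 6.96-fold lower in the negative library (7.11 CPM in the negative library, against 49.5 CPM in the positive one). Rbl2, which encodes the retinoblastoma relative p130, was 6.10-fold higher (38.7 CPM in the negative library, against 6.34 CPM in the positive one). Angpt2, a TIE2 ligand of remodelling vessels, was 4.81-fold higher (64.6 CPM in the negative library, against 13.4 CPM in the positive one).

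Vascular and stromal genes linked to FOXC factors differed in both directions. Of 22, 18 met the level filter, 5 were higher, 9 were lower and 4 were not past the rule in the negative library, beside 15.2% higher and 14.9% lower over all genes. The median log2 ratio was −0.74. Etv2, an early regulator of endothelial fate, had 0 counts in the negative library, against 103 in the positive one, at least 37.8-fold lower (exact bound 30.2-fold). Prox1, the lymphatic regulator gene, was 6.85-fold lower. Pdgfra, a receptor of mesenchymal cells, was 7.81-fold higher and the chemokine gene Cxcl12 was 6.06-fold higher. This list shares Kdr, Tek, Tie1 and Cdh5 with the endothelial markers and Pdgfra, Pdgfrb and Twist1 with the mesenchymal ones, and it shares Angpt2 with the FOXO targets.

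Corepressor partners of FOXP, FOXK and FOXN proteins had ratios on both sides of equal expression, and 1 was past the rule. Of 25, 24 met the level filter, 1 was higher, 0 were lower and 23 were not past the rule in the negative library, beside 30.1% of all genes past it. The median log2 ratio was 0.02, with 12 genes above and 12 below equal expression, between −1.09 and 1.24. Ogt, the enzyme that adds O-linked N-acetylglucosamine to proteins, was 2.37-fold higher. The histone-binding genes Rbbp7 and Rbbp4, with the most counts of the list, had log2 ratios of 0.29 and −0.42.

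**Figure D5:**
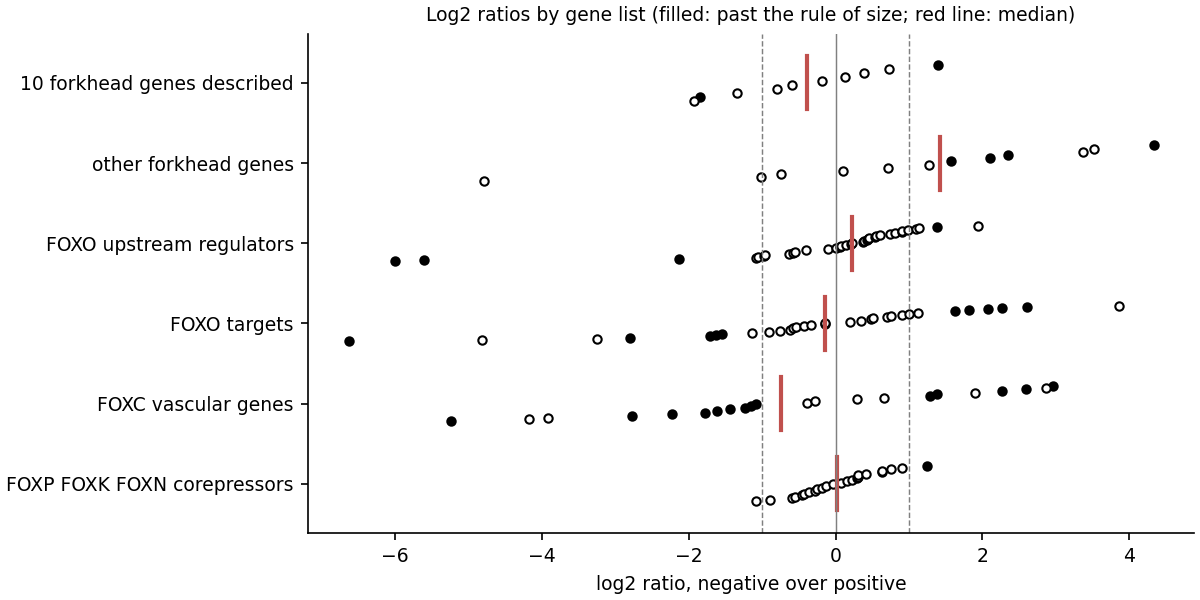
Log2 ratios of Gata2Venus-negative over Gata2Venus-positive for the genes of each list with at least 20 counts over both libraries; filled points are past the rule of size, the red line is the list's median and dashed lines mark 2-fold. Within a list, points are spread vertically for legibility only. Medians are −0.39 for the 10 forkhead genes, 1.42 for the other forkhead genes and 0.02 for the corepressors.

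Markers of several cell types moved between the same libraries, beside a background of 15.2% of genes higher and 14.9% lower. Endothelial markers were lower in 5 of 10 and higher in 0, with a summed level of 2749 CPM in the negative library, against 4982 CPM in the positive one, and 0 of them were at 0 counts in either library. Mesenchymal markers were higher in 4 of 9, of which 8 met the level filter (6978 CPM in the negative library, against 4508 CPM in the positive one) and smooth muscle markers in 3 of 5, of which 4 met it (983 CPM in the negative library, against 338 CPM in the positive one), with 0 lower in each list. Twist1 and Myh11 were at 0 counts in the positive library, against 24 and 6 counts in the negative one, both below the filter. Col3a1 gave most of the mesenchymal difference (3249 CPM in the negative library, against 1310 CPM in the positive one), while Dcn, Col1a2 and Lum had log2 ratios of −0.74, −0.13 and −0.11. Macrophage markers were lower in 6 of 7 (190 CPM in the negative library, against 900 CPM in the positive one) and megakaryocytic ones in 5 of 6 (62.1 CPM in the negative library, against 330.1 CPM in the positive one), with Gp1bb and Gp5 at 0 in the negative library. All 6 erythroid markers were at 0 in the negative library and summed to 52.3 CPM in the positive one, where Hbb-bt and Hba-a1 were also at 0. Of 7 blood progenitor markers 5 met the filter, 3 were lower and 1 was higher, Kit, on which the cells were also sorted. The list summed to 704 CPM in the negative library, against 991 CPM in the positive one. Most of this was Cd34, not past the rule (455 CPM in the negative library, against 759 CPM in the positive one). Gfi1 was at 0 in both libraries and Myb in the negative one. Of 6 nephric and coelomic markers 2 met the filter and 1 was higher, Gata4, with 318 counts in the negative library, against 1 in the positive one. The list summed to 69.7 CPM in the negative library, against 55.5 CPM in the positive one, and had a median log2 ratio of −0.48, with Pax8 at 0 in both and Lhx1 in the negative library. The part of these cell types in the Foxo1, Foxp2 and other forkhead differences was not tested.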

How the data were processed

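RNA was measured by sequencing in 1 Gata2Venus-negative and 1 Gata2Venus-positive library. Per the labels' protocols, RNA came from the mirVana kit, cDNA from SMARTER and libraries from standard Illumina methods. The submitters' processing notes name TopHat, Cufflinks, HTSeq and build mm10, while the sources used here give no versions, annotation or strand use. The values deposited by the authors are raw whole-number counts per gene symbol. Rows for reads assigned to no gene, such as alignments that are not unique (45.5% of all counts in the negative library, against 48.2% in the positive one), were left out.

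Counts were scaled by TMM (factors 1.03 for the negative library and 0.974 for the positive one, edgeR 4.0.16, R 4.3.3). Intervals are exact at 95% (SciPy 1.17.1). A library at 0 was set to 3 counts, 0.288 CPM in the negative library, against 0.317 CPM in the positive one, for a point value. List medians use that value, while exact bounds use the 0. Gene lists, alternatives and the rule of size are those of the report, and the members and lists were chosen with earlier results of these data known. All 10 genes were named, then other forkhead genes past the rule and the 3 with most counts, then up to 4 genes past the rule per pathway list, or the 2 with most counts. Lists of under 9 genes were to be given in full, but marker lists are given as counts and sums. Steps were tested on simulated counts drawn with counting error only, so that test says nothing of variation between libraries or of amplification. Gene models came from GENCODE vM21, and promoters from RefSeq (GRCm38.p6). DESeq2 1.42.0 size factors and other settings were tried as alternatives. Some sequences and 1 marker gene are not reported here.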

Additional observations from a re-analysis of the deposited data

How the results depend on the processing

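No paired analysis was possible because each group has 1 library. Over the alternative scalings (total counts, DESeq2 size factors, upper quartile, without the 100 most abundant genes), thinning of the deeper library and 0.5 added counts, each of the 10 log2 ratios stayed within its own counting interval. Foxo1 lay between −1.87 and −1.76 and Foxp2 between 1.36 and 1.47, and both passed the rule of size under these settings and under the filters tried. With an interval beyond 4-fold, or with a spread between libraries put at a coefficient of variation of 0.4, 0 of the 10 genes were higher and 0 were lower, beside 14.4% and 12.8% of all genes. With that assumed spread the interval was −3.46 to −0.23 for Foxo1 and −0.22 to 3.002 for Foxp2, which includes equal expression. Whether libraries of the same group vary that much could not be measured here.

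Of the other forkhead genes, 1 was higher with the 50 CPM filter, with the 4-fold interval or with the assumed spread, where the rule gave 4. Foxr1 was not past the rule with the deeper library thinned, and Foxh1 was with total counts or with no interval. Foxa2 or Foxm1 was the 1 gene that was lower with the filter of 1 CPM and 10 counts, without a filter, without the 100 most abundant genes (Foxa2) or with a 2-fold ratio and no interval (Foxm1), where the rule gave 0. Over the 4 pathway lists and the neighbours of the FOXC genes together, each gene counted once, 14 genes were higher and 18 were lower. These were 8 and 10 with the 50 CPM filter, 5 and 6 with the 4-fold interval, and 3 and 6 with the assumed spread. The last 3 settings are stricter than the rule by construction. The median over genes that met the level filter was 0.08 when libraries were scaled by total counts and 0.00 by TMM. By the longest transcript, Foxp2 made up 43.4% of FOXP transcripts per kb in the negative library, against 16.9% in the positive one, where all exons gave 35.4% for the negative library and 13.0% for the positive one. Of the corepressors, 1 was lower by upper quartile, without the 100 most abundant genes, with no interval or with thinning, where the rule gave 0. Low counts limit Foxc1, Foxo3 and Foxo4.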

Other observations

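The Foxk1 and Foxk2 pair and the Foxn2 and Foxn3 pair lay outside the main subfamily comparisons. Their count ratios had intervals, for counting error only, that left out equality. So did the intervals of 85.3% of single genes with at least 20 counts, and the share over other gene pairs was not computed. There were 0.887 Foxk1 counts per Foxk2 count in the negative library, against 0.486 in the positive one (ratio of the 2 values 1.82, interval 1.36 to 2.45). Foxk2 itself had 195 counts in the negative library, against 296 in the positive one, a log2 ratio of −0.74 that was not past the rule of size. There were 1.07 Foxn2 counts per Foxn3 count in the negative library, against 0.848 in the positive one (ratio 1.26, interval 1.02 to 1.56). Foxh1, a partner of SMAD proteins in early embryos, chosen for naming once its values had been seen, was at 26.2 CPM in the negative library, against 10.9 CPM in the positive one, with a log2 ratio of 1.27 (interval 0.94 to 1.61) that was past the rule only with total-count scaling or with no interval required, of the settings tried.

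RefSeq promoter windows were matched for 6 of the 10 genes (Foxc1, Foxo1, Foxo3, Foxn3, Foxp1 and Foxp4), 8 windows in all. The 250 bases before each RefSeq start, of which 1 to 169 per window lie in exons annotated by GENCODE, were searched on both strands for a GATA motif (GATA between A or T before it and A or G after it) and for a forkhead motif (GTAAACA or ATAAACA). The GATA motif was in 0 of the 8 windows and in 26.5% of the 32851 windows of all genes. The forkhead motif was in 2 of 8, both among the 3 windows of Foxp1 (169 and 17 exonic bases), and in 7.1% of all windows. A match is a description of these letters in this window and says nothing of binding.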
